A study of Mus musculus with 12 samples.

Results

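An antibody that neutralises TGF-beta was compared with control IgG in mice already obese from diet, on 4 of the 12 arrays of the series. The members were taken from the sample titles, with 2 arrays titled ATGF and 2 titled IgG, and 1 probe set per gene gave 18194 genes. All 4 samples came from mice labelled as strain C57J/B6 and as diet-induced obese, fed a diet with 55% fat. The control group received IgG of clone 13C4 and the treated group the TGF-beta antibody of clone 1D11, with 3 intraperitoneal injections in each of 8 weeks for both. No genotype other than the strain, no age and no sex is given for these samples. The other 8 arrays hold wild-type C57BL/6 mice and Smad3-/- mice whose mixed background joins C57BL/6 with NIH Black Swiss, on regular or high fat diet. The high fat diet arrays of both genotypes are used below for 1 comparison, and a difference there holds strain background as well as genotype.

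TGF-beta is secreted in a latent complex, is released by integrins and proteases, and binds a receptor pair that phosphorylates Smad2 and Smad3, which then join Smad4 in the nucleus. In fat tissue the pathway is known for driving collagen production by fibroblasts and for restraining fat-cell differentiation and the brown-fat programme. White fat of obese mice is known to gather macrophages around dying fat cells and to lay down more collagen.

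The labels name no tissue. Adipoq, the gene of the fat-cell hormone adiponectin, read 13.80 and 13.80 with IgG and 14.18 and 14.12 with the antibody on the log2 scale, so the defining fat-cell marker was measured in both groups. Over all genes the 2 IgG arrays correlated at r = 0.9955 and the 2 antibody arrays at r = 0.9960, and pairs across the groups at 0.9734 to 0.9741. Whether the a and b arrays stand for different mice is not labelled. The p-values therefore weigh the differences against array-to-array spread alone, and that spread may be technical. Each log2 difference below is antibody minus IgG with the SE of the limma fit and n = 2 arrays a side, and a gene is called (rose or fell) at a Benjamini-Hochberg adjusted p under 0.05 over all 18194 genes. A value given after the word at is also this log2 difference. Every value here comes from bulk RNA, in which fewer cells of a type and less RNA per cell cannot be told apart.

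Of the 18194 genes, 24.3% were called, 11.7% higher and 12.6% lower with the antibody. The counts were 2135 higher and 2288 lower, with a median difference over all genes of -0.003. With only 2 arrays a side, the groups did not overlap for 29.7% of all genes on the higher side and 30.5% on the lower side. Large increases outnumbered large decreases: 47 called genes were at least 8-fold higher and 12 at least 8-fold lower, and 32 against 1 passed 16-fold. Among 1.5-fold changes the order was the other way, with 893 genes higher and 1074 lower. The largest rises were those of contractile genes of skeletal muscle and of brown-fat genes such as Ucp1, and the largest falls came from a mixed set described next.

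Tph2, which makes serotonin in nerve cells, had the largest fall of all genes tested. It read 8.79 and 8.97 with IgG and 3.54 and 3.72 with the antibody, a difference of -5.25 ± 0.15 (limma adjusted p = 6.85e-21). Ubd, a ubiquitin-like protein induced by inflammation, read 11.18 and 10.98 with IgG and 6.97 and 7.44 with the antibody, and Ncan, a proteoglycan best known from brain, read 8.83 and 8.73 with IgG and 4.98 and 4.90 with the antibody. The IgG arrays lay far above the antibody arrays for all of these, with no overlap. The differences were -3.87 ± 0.14 (limma adjusted p = 2.72e-18) for Ubd and -3.84 ± 0.13 (limma adjusted p = 1.4e-18) for Ncan. All 3 probe sets of Ncan were lower, by differences of -1.21, -2.42 and -3.84.

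Oxtr, the oxytocin receptor, read 10.57 and 10.55 with IgG and 7.34 and 7.55 with the antibody, a difference of -3.12 ± 0.11 (limma adjusted p = 3.08e-18). Its other probe set differed by -0.55. Rnf128, a ubiquitin ligase of T cells, read 8.52 and 8.86 with IgG and 5.59 and 5.50 with the antibody, and Saa3, an acute phase protein made by inflamed fat and macrophages, read 11.83 and 11.80 with IgG and 8.25 and 9.01 with the antibody. Both were lower on each antibody array than on either IgG array, with differences of -3.14 ± 0.13 (limma adjusted p = 1.06e-16) and -3.19 ± 0.15 (limma adjusted p = 1.09e-15). The 2 antibody arrays lay further apart for Saa3 than the 2 IgG arrays did. Of 19 serotonin genes, Tph2 included, 4 fell and 1 rose, a share of 26.3% that is close to the 24.3% of all genes. Maoa, which breaks serotonin down, fell with a difference of -1.27 and Htr2b, a serotonin receptor, at -1.14 on the log2 scale.

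**Figure D1:**
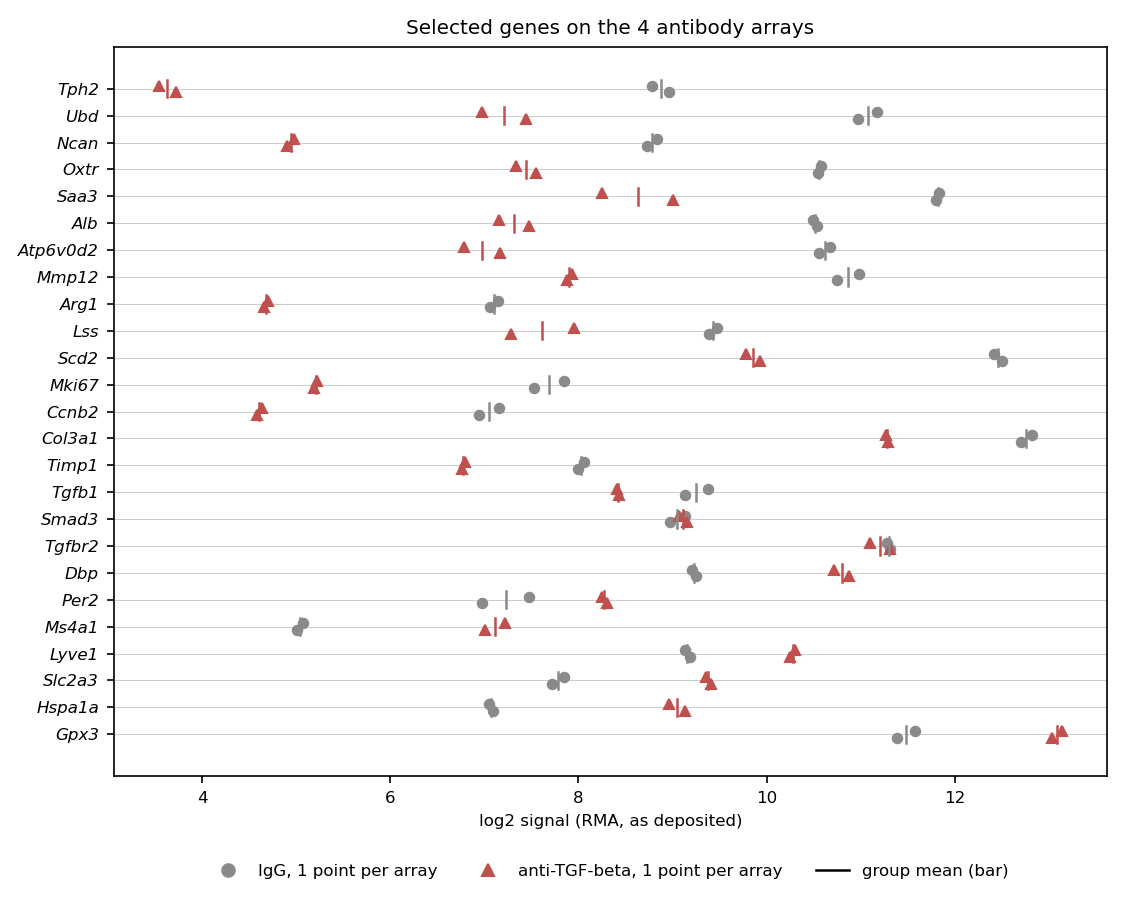
Log2 signal (x axis, RMA as deposited) of 25 genes on the 4 antibody-experiment arrays, grey circles for IgG, red triangles for the antibody against TGF-beta, and short bars for group means of 2 arrays. The groups do not overlap for Tph2, where IgG reads 8.79 and 8.97 and the antibody 3.54 and 3.72, and they overlap for Smad3 and Tgfbr2.

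In the pathway that the antibody targets, ligand and latency genes were called in both directions, and receptors and Smads were called about as often as all genes. Of 16 ligand and latency genes, 5 rose and 5 fell, which is 62.5% called against 24.3% of all genes. Of 23 receptors, Smads and inhibitors, 3 rose, 2 fell and 18 were not called, which is 21.7% called. Tgfb1, the main ligand of inflamed and scarred tissue, read 9.37 and 9.13 with IgG and 8.41 and 8.43 with the antibody, a difference of -0.83 ± 0.12 (limma adjusted p = 3.98e-06). Tgfb2 differed by -0.04 ± 0.16 (limma adjusted p = 0.889) and was not called, while Tgfb3 rose by 0.36 ± 0.12 (limma adjusted p = 0.0324). Nrros, which holds latent TGF-beta on macrophages, read 9.64 and 9.78 with IgG and 8.58 and 8.62 with the antibody, a difference of -1.11. The arrays of the groups did not overlap for Tgfb1, Tgfb3 and Nrros, but Tgfb3 was not called once any 1 of the 4 arrays was left out (limma adjusted p = 0.0962 to 0.135).

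Among proteins that store or release the ligand, Ltbp3, a latent TGF-beta binding protein, and Itgav, an integrin chain that activates it, were lower, with differences of -0.46 and -0.53. Ltbp4, a second binding protein, and Thbs1, a matrix protein that can free the ligand, were higher by 0.47 and 0.54. The proteoglycans that bind TGF-beta split, with Fmod and Dcn higher by 0.69 and 0.28 and Bgn lower, with a difference of -0.40. Leaving out 1 array ended several of these small calls. Dcn was lost without any 1 of the 4 (limma adjusted p = 0.137 to 0.237) and with the replicate block (limma adjusted p = 0.0596). Bgn was lost without IgG array b (limma adjusted p = 0.0681) or antibody array a (limma adjusted p = 0.094). Ltbp3 and Ltbp4 were lost without antibody array a (limma adjusted p = 0.211 and 0.0593).

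For the receptors, Tgfbr1 read 9.40 and 9.33 with IgG and 9.25 and 9.23 with the antibody and Tgfbr2 11.28 and 11.32 with IgG and 11.10 and 11.31 with the antibody. Neither was called, with differences of -0.12 ± 0.12 (limma adjusted p = 0.51) and -0.09 ± 0.10 (limma adjusted p = 0.596). Smad3 read 9.13 and 8.97 with IgG and 9.07 and 9.16 with the antibody, with the 2 groups interleaved and a difference of 0.06 ± 0.11 (limma adjusted p = 0.751). Smad2 and Smad4 differed by -0.08 and -0.22 and were not called either. Nedd4l, a ubiquitin ligase that degrades active Smads, and Tgif1, a Smad corepressor, fell with differences of -0.58 and -0.58 on the log2 scale. The call of Tgif1 was lost under quantile normalization (limma adjusted p = 0.053). Eng, a coreceptor of endothelial cells, rose by 0.40, a call that was lost without any 1 of the 4 arrays (limma adjusted p = 0.052 to 0.144). Smurf1, another ligase of the pathway, had a difference of 0.43 that lost its call without IgG array b (limma adjusted p = 0.189) or without antibody array b (limma adjusted p = 0.213).

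Of 29 target genes of TGF-beta, 12 fell, 4 rose and 13 were not called, with a median difference of -0.249. That is 55.2% called, against 24.3% of all genes. Among feedback genes of the pathway, Smad7, the inhibitory Smad, differed by 0.27 ± 0.12 (limma adjusted p = 0.0943) and Skil by 0.09 ± 0.11 (limma adjusted p = 0.635), and neither was called. Pmepa1, a feedback inhibitor, differed by -0.21 ± 0.12 (limma adjusted p = 0.233) and was not called, but it was lower with the mean of its probe sets, at -0.52 (limma adjusted p = 0.000413), and with only the 4 antibody arrays in the fit (limma adjusted p = 0.0352). Ccn2, the connective tissue growth factor, differed by -0.29 ± 0.11 (limma adjusted p = 0.0578). It has 1 probe set, and at the same difference it was called lower when dim probe sets were left out, when the other genes were averaged over their probe sets, or with only the 4 antibody arrays in the fit (limma adjusted p = 0.00961 to 0.0494). The 12 that fell included 3 fibrillar collagen chains and other matrix genes, but also Cdkn2b, an inhibitor of cell cycle kinases, at -0.81. Timp1, an inhibitor of matrix proteases, read 8.06 and 7.99 with IgG and 6.80 and 6.76 with the antibody, a difference of -1.25 ± 0.13 (limma adjusted p = 1.7e-08). Tnc, a matrix glycoprotein of wounds, and Ccn1, a matricellular protein, fell with differences of -1.03 and -0.97. The contractile targets Cnn1 and Tagln rose instead, by 0.94 and 0.73. Both encode smooth muscle proteins, and of 17 smooth muscle and pericyte genes 6 rose and 2 fell. The best known target of this kind, Acta2, differed by -0.09 ± 0.10 (limma adjusted p = 0.608) and was not called. Its other probe sets, both dimmer, were called in opposite directions, at -0.49 and 0.77 (limma adjusted p = 0.0441 and 0.000289).

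**Figure D2:**
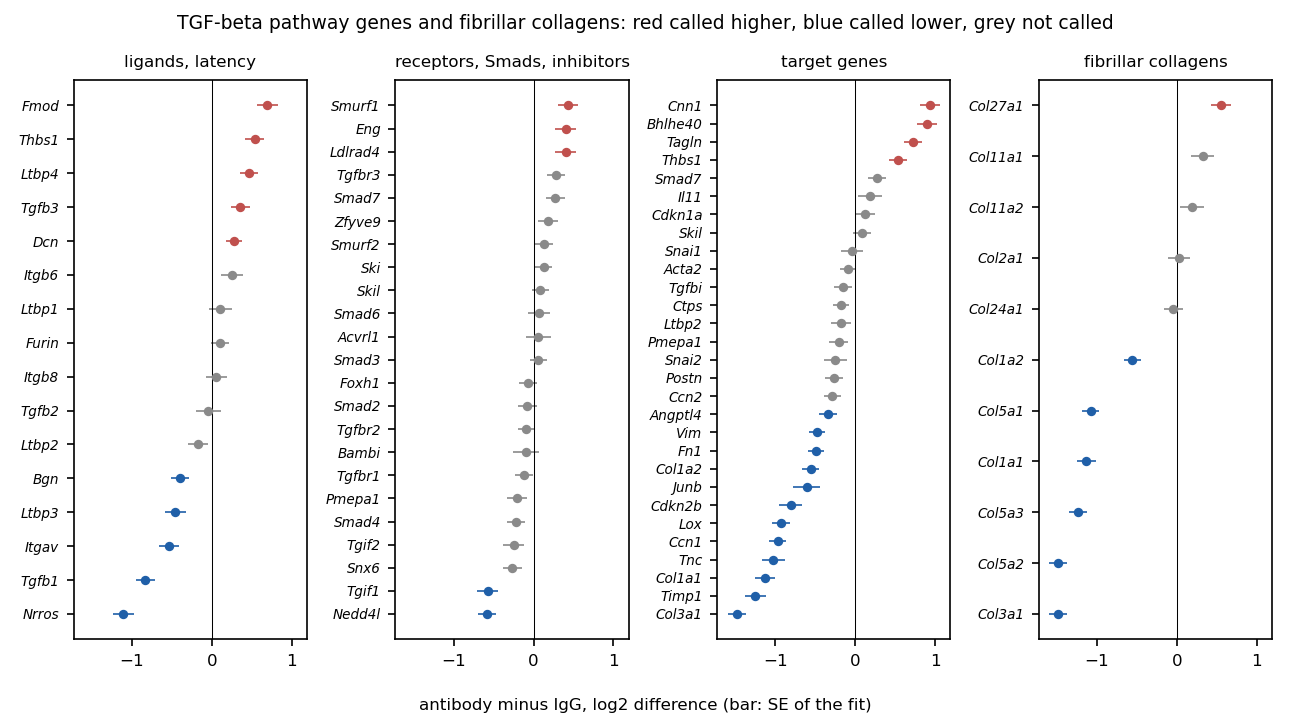
Log2 difference between antibody and IgG (x axis) for each measured gene of 3 TGF-beta lists and of the fibrillar collagens, with horizontal bars for the SE of the fit; red was called higher, blue lower and grey not called. The receptors and Smads sit close to 0, Tgfb1 at -0.83, and 6 of the 11 fibrillar collagens are to the left, down to -1.48 for Col3a1.

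Collagens of the interstitial matrix were lower with the antibody. Of 11 fibrillar collagens, 6 fell and 1 rose, with a median of -0.557. Col3a1, the type III chain of soft tissue, read 12.82 and 12.70 with IgG and 11.27 and 11.29 with the antibody, a difference of -1.48 ± 0.11 (limma adjusted p = 3.74e-11) or 2.793-fold. Col1a1, the main chain of type I collagen, read 11.32 and 11.16 with IgG and 10.16 and 10.06 with the antibody, a difference of -1.13 ± 0.12 (limma adjusted p = 3.81e-08). Its partner Col1a2 fell with a difference of -0.56. The 3 chains of type V collagen, which sets fibril width, moved together with differences of -1.08 for Col5a1, -1.48 for Col5a2 and -1.24 for Col5a3. Col27a1, a cartilage collagen, was the one that rose, by 0.55 ± 0.12 (limma adjusted p = 0.000937). The remaining 4, Col2a1, Col11a1, Col11a2 and Col24a1, had differences of -0.05 to 0.32 and were not called.

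Type VI collagen, a coat around fat cells, followed the same direction. Col6a1 read 11.73 and 11.58 with IgG and 10.64 and 10.61 with the antibody, Col6a2 12.21 and 12.26 with IgG and 11.19 and 11.22 with the antibody, and Col6a3 11.20 and 11.19 with IgG and 10.42 and 10.50 with the antibody. None of these overlapped between groups, and the differences were -1.03 ± 0.11 (limma adjusted p = 2.6e-08), -1.03 ± 0.10 (limma adjusted p = 6.77e-09) and -0.74 ± 0.10 (limma adjusted p = 3.85e-06). In all, 6 of 16 other collagens fell and none rose.

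Enzymes that fold, trim and cross-link collagen gave 7 lower and 1 higher of 19. Serpinh1, the collagen chaperone, fell with a difference of -1.05, P3h1, a prolyl hydroxylase, at -1.04, Pcolce2, an enhancer of procollagen cleavage, at -1.17 and Lox, which cross-links fibrils, at -0.93. Of 22 basement membrane genes, 10 fell and 1 rose. Col4a1 and Col4a2, the common chains of type IV collagen, had differences of -0.65 and -0.85, and Col15a1 and Lamb3 of -1.17 and -1.25. Matrix glycoproteins were divided, with 11 of 30 lower, led by Mfap4 at -1.29 and Lum at -1.08, and 4 higher, among them Fbln1 at 1.00. Of 34 proteases and inhibitors 11 fell and 7 rose. Fibroblast markers were called lower in 7 of 24 and higher in 2, a share of 37.5% against 24.3% of all genes. Ccn5, a fibroblast matricellular protein, read 9.69 and 9.62 with IgG and 7.53 and 7.52 with the antibody, a difference of -2.13, and Pdgfra, a receptor that marks adipocyte precursors, rose by 0.62 ± 0.12 (limma adjusted p = 0.000202).

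Macrophage genes were lower across most of the list. Of 25 general markers, 22 fell and 1 rose, with a median of -0.956, and of 22 genes of lipid-associated macrophages 16 fell and 1, Cd5l, rose, by 0.82. The summed level of the general markers was 15.815 to 15.891 on the IgG arrays and 14.890 to 14.929 on the antibody arrays. Itgax, the integrin CD11c of fat macrophages, read 10.79 and 10.81 with IgG and 7.83 and 7.98 with the antibody, a difference of -2.89 ± 0.12 (limma adjusted p = 5.4e-17). Mmp12, the macrophage elastase, read 10.99 and 10.75 with IgG and 7.93 and 7.87 with the antibody, a difference of -2.96 ± 0.13 (limma adjusted p = 2.9e-16). Neither overlapped between groups.

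Trem2, the lipid receptor of these cells, fell with a difference of -1.95, Gpnmb at -2.45, Slc37a2 at -2.17 and the osteoclast-type fusion protein Dcstamp at -0.98. Atp6v0d2 is an alternative subunit of the lysosomal proton pump made by macrophages and osteoclasts, and it had the largest fall of the 23 pump genes, of which 7 fell. The next was Tcirg1, another pump subunit of these cells, at -1.15. None of the 23 pump genes rose, and the 7 that fell make 30.4%, where 12.6% of all genes were lower. Atp6v0d2 read 10.68 and 10.56 with IgG and 6.79 and 7.16 with the antibody, a difference of -3.64. Its widely expressed counterpart Atp6v0d1 differed by -0.54 ± 0.11 (limma adjusted p = 0.000324). Of 28 cathepsins and other lysosomal genes 18 fell and none rose, with differences of -1.71 for Ctsk, -1.55 for Ctss, -1.35 for Gusb and -1.29 for Lipa, the lysosomal lipase.

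Markers of resident and alternatively activated macrophages gave both directions. Of 19 genes 9 fell and 2 rose. Arg1, the arginase of alternative activation, read 7.14 and 7.06 with IgG and 4.70 and 4.66 with the antibody, a difference of -2.42 ± 0.15 (limma adjusted p = 3.52e-13). Clec10a and Ccl8 fell with differences of -1.73 and -2.16. Lyve1, a hyaluronan receptor of resident macrophages and lymphatic endothelium, read 9.13 and 9.18 with IgG and 10.31 and 10.25 with the antibody and so lay higher on both antibody arrays, by 1.12 ± 0.12 (limma adjusted p = 4.68e-08). The other gene that rose was Fcna, a resident macrophage lectin, by 0.64. Mrc1, the mannose receptor, fell with a difference of -0.87, and Cd163 and Timd4 were not called.

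Inflammatory signals were not lower throughout. Of 33 chemokines 9 fell and 2 rose, a share of 33.3% against 24.3% of all genes. Ccl2, which recruits monocytes, read 7.74 and 7.69 with IgG and 7.01 and 6.98 with the antibody, a difference of -0.72 ± 0.14 (limma adjusted p = 0.000314), and Ccl9 and Ccl6 fell with differences of -1.11 and -0.87. Cxcl13, which attracts B cells, rose by 1.10 ± 0.15 (limma adjusted p = 2.04e-06). Tnf read 6.18 and 5.93 with IgG and 5.65 and 5.90 with the antibody and Il6 3.77 and 3.94 with IgG and 3.85 and 4.02 with the antibody. The groups overlapped for Il6 and lay close together for Tnf. Neither was called, with differences of -0.28 ± 0.15 (limma adjusted p = 0.212) for Tnf and 0.08 ± 0.15 (limma adjusted p = 0.752) for Il6. All readings of Tnf and Il6 lay below the array medians of 6.96 to 6.98, those of Il6 far below, so a fall might not show. Socs3, an inhibitor of cytokine signalling, rose by 1.21 ± 0.12 (limma adjusted p = 1.13e-08). Of 33 cytokine and acute phase genes 9 fell and 3 rose, a share of 36.4%. The falls included Il1rn at -1.24 and Hp, haptoglobin, at -0.91. Of 15 genes of MHC class II presentation 7 fell and none rose. Ciita, the master activator of class II, fell with a difference of -0.96, and H2-Ab1, H2-Eb1 and H2-Aa at -0.92, -0.94 and -0.84. The interferon response gave 9 lower and 3 higher of 30, a share of 40%.

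B cell genes were called in both directions, more often higher. Of 21 B and plasma cell genes 9 rose and 5 fell. Ms4a1, the B cell surface protein CD20, read 5.07 and 5.01 with IgG and 7.21 and 7.01 with the antibody, a difference of 2.07 ± 0.14 (limma adjusted p = 1.55e-12). Spib, a B cell transcription factor, rose by 1.61 and Cd79b, a part of the B cell receptor, by 1.16. The arrays did not overlap for these genes. Blnk and Sdc1 fell with differences of -1.56 and -1.04. Pax5 differed by -0.08 ± 0.14 (limma adjusted p = 0.736) and was not called. T and NK cell genes gave 8 lower and none higher of 26, led by Il7r, the interleukin-7 receptor, at -2.22 ± 0.12 (limma adjusted p = 1.36e-14). All calls there were falls, a share of 30.8%, where 12.6% of all genes were lower and 11.7% higher.

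Genes of cell division were lower. Of 39 measured cell cycle genes 26 fell, 1 rose and 12 were not called, with a median of -0.686. Mki67, the protein that marks dividing cells, read 7.84 and 7.53 with IgG and 5.22 and 5.19 with the antibody, a difference of -2.48 ± 0.16 (limma adjusted p = 7.93e-13). Ccnb2, a cyclin of mitosis, read 7.15 and 6.95 with IgG and 4.63 and 4.58 with the antibody, a difference of -2.44 ± 0.14 (limma adjusted p = 1.44e-13), and Top2a, which untangles DNA, read 7.30 and 7.36 with IgG and 5.09 and 5.34 with the antibody. The groups were far apart for all 3 genes, and Birc5, a survival and mitosis protein, had the largest fall of the list, at -2.63. Replication licensing genes were less uniform. Mcm5 fell with a difference of -1.18, Mcm2 and Mcm4 had differences of -0.26 and 0.14 and were not called, and Mcm7 rose by 0.58. With dim probe sets taken out of the fit, 14 members were called lower, and the drop from 26 includes members that were no longer tested. Macrophage markers fell in the same samples, and their part in the cell cycle counts was not tested.

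Promoters of this list are shown because so many members moved one way. RefSeq start sites of GRCm38.p6 gave a promoter for 14450 of the 18194 genes, taken as the 250 bases before the first start listed. Both strands were searched, and a match on the other strand appears as the reverse complement. CCAAT, the box read by the factor NF-Y, was in 78.1% of 32 cell cycle promoters and in 35.7% of all, and TTTGAA, the core of the cell cycle homology region, in 28.1% and 12.0%. Among all genes called higher and all called lower, CCAAT was in 36.4% and 37% and TTTGAA in 9.84% and 11.5%. The 2 promoters below, with CCAAT or its complement in capitals, are Ccnb2 at chr9:70421555-70421804 and Top2a at chr11:99024190-99024439, both on the minus strand.
Ccnb2: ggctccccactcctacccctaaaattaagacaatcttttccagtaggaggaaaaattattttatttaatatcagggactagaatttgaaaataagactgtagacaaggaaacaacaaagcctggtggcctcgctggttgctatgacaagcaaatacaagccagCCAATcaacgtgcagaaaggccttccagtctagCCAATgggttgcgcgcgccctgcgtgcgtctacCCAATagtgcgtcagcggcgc
Top2a: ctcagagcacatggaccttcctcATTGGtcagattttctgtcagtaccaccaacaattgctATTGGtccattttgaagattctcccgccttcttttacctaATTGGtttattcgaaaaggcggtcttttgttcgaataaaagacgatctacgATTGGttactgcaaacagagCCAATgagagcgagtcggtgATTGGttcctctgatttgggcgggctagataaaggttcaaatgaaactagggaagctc
Ccnb2 holds 3 matches and Top2a 6. A match describes letters in a window and is no evidence of binding.

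Transcripts of liver proteins were lower. Of 21 measured liver genes 17 fell and 2 rose, with a median of -1.463. Alb, serum albumin, read 10.50 and 10.53 with IgG and 7.16 and 7.48 with the antibody, a difference of -3.20 ± 0.13 (limma adjusted p = 6.58e-17) or 9.172-fold. Apoa2, an apolipoprotein, read 9.52 and 9.29 with IgG and 6.05 and 6.04 with the antibody, and Ttr, a thyroid hormone carrier, read 9.22 and 9.27 with IgG and 6.84 and 6.74 with the antibody. The IgG arrays were higher for each, with differences of -3.36 for Apoa2 and -2.45 for Ttr. Hpx, Fga and Cyp3a11 fell with differences of -2.62, -2.18 and -2.17. Fabp1, a fatty acid carrier of liver and gut, fell with a difference of -3.54. The 2 that rose, Pck1 at 0.68 and Cyp2e1 at 0.63, encode enzymes that fat cells also make. The summed level of the list was 14.160 and 14.221 with IgG and 14.539 and 14.454 with the antibody. Serpina1b and Serpina1c, copies of the gene of alpha-1 antitrypsin, fell with differences of -3.37 and -3.23. These copies are near-identical, so their probe sets may share signal. With dim probe sets taken out of the fit, 8 members of the list were called lower, and the drop from 17 includes members that were no longer tested.

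Cholesterol synthesis was lower along nearly the whole pathway. Of 20 measured genes 18 fell, 1 rose and 1 was not called, with a median of -0.814. At the start, Hmgcs1, which makes HMG-CoA, read 11.94 and 11.80 with IgG and 11.20 and 11.23 with the antibody, a difference of -0.66 ± 0.13 (limma adjusted p = 0.000335). In the mevalonate part, Mvk, Mvd and Idi1 fell with differences of -0.76, -0.77 and -1.16. Fdps, which makes farnesyl diphosphate, read 10.10 and 9.95 with IgG and 8.42 and 8.41 with the antibody, a difference of -1.61 ± 0.12 (limma adjusted p = 2.72e-11). The next enzyme, Fdft1 (squalene synthase), read 9.49 and 9.44 with IgG and 10.07 and 10.09 with the antibody and was the only member to rise, by 0.62 ± 0.13 (limma adjusted p = 0.000534).

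Past squalene, Sqle fell with a difference of -0.75, and Lss, which closes the sterol rings, had the largest fall of the list. Lss read 9.47 and 9.39 with IgG and 7.95 and 7.28 with the antibody, a difference of -1.82 ± 0.15 (limma adjusted p = 3e-10), and the 2 antibody arrays differed more from each other than the IgG arrays did. Cyp51, Nsdhl and Dhcr7, which finish the sterol, fell with differences of -1.54, -1.30 and -1.49. Insig1, a sensor that responds to sterols, fell with a difference of -0.85. Srebf2, the transcription factor that drives the pathway, read 8.15 and 7.93 with IgG and 7.97 and 7.85 with the antibody, a difference of -0.14 ± 0.12 (limma adjusted p = 0.458), and was not called. Liver transcripts and macrophage markers were also higher in the IgG samples, and their part in these falls was not tested.

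CCAAT was found in 93.8% of 16 promoters of cholesterol genes, against 35.7% of all. It was also in 64.7% of 17 promoters of clock genes, a list described below that was mostly called higher. TCACNCCAC, letters found in sterol response elements, was in 1 of the 16, against 1.02% of all. Hmgcs1 at chr13:119690101-119690350, on the plus strand, is printed because it is the one promoter with both. Capitals mark CCAAT or its complement, which occurs 3 times.
Hmgcs1: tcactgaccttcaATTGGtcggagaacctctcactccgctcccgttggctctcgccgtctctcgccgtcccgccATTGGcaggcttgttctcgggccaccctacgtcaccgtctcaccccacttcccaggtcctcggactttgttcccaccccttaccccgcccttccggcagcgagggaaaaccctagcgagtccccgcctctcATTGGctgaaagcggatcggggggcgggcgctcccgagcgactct
These motifs, like TTTGAA above and CACGTG below, were chosen after the gene values were seen.

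Fatty acid and triglyceride synthesis was divided within the pathway. Of 28 genes 12 fell and 6 rose. Scd2, a desaturase, read 12.42 and 12.50 with IgG and 9.78 and 9.93 with the antibody, a difference of -2.61 ± 0.11 (limma adjusted p = 3.92e-17), while Scd1, the abundant desaturase of fat, read 14.19 and 14.07 with IgG and 14.16 and 14.07 with the antibody and was not called, with a difference of -0.01 ± 0.10 (limma adjusted p = 0.957). Acss2, Me1 and Pgd, which supply acetyl-CoA and NADPH, fell with differences of -1.21, -0.85 and -0.87. Fasn, the synthase itself, differed by 0.04 ± 0.10 (limma adjusted p = 0.83). Acacb, a carboxylase, and Mlxipl, the sugar-sensing factor ChREBP, rose by 0.99 and 1.07. Pnpla3, a lipid droplet protein of the sterol and insulin response, fell with a difference of -1.72.

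**Figure D3:**
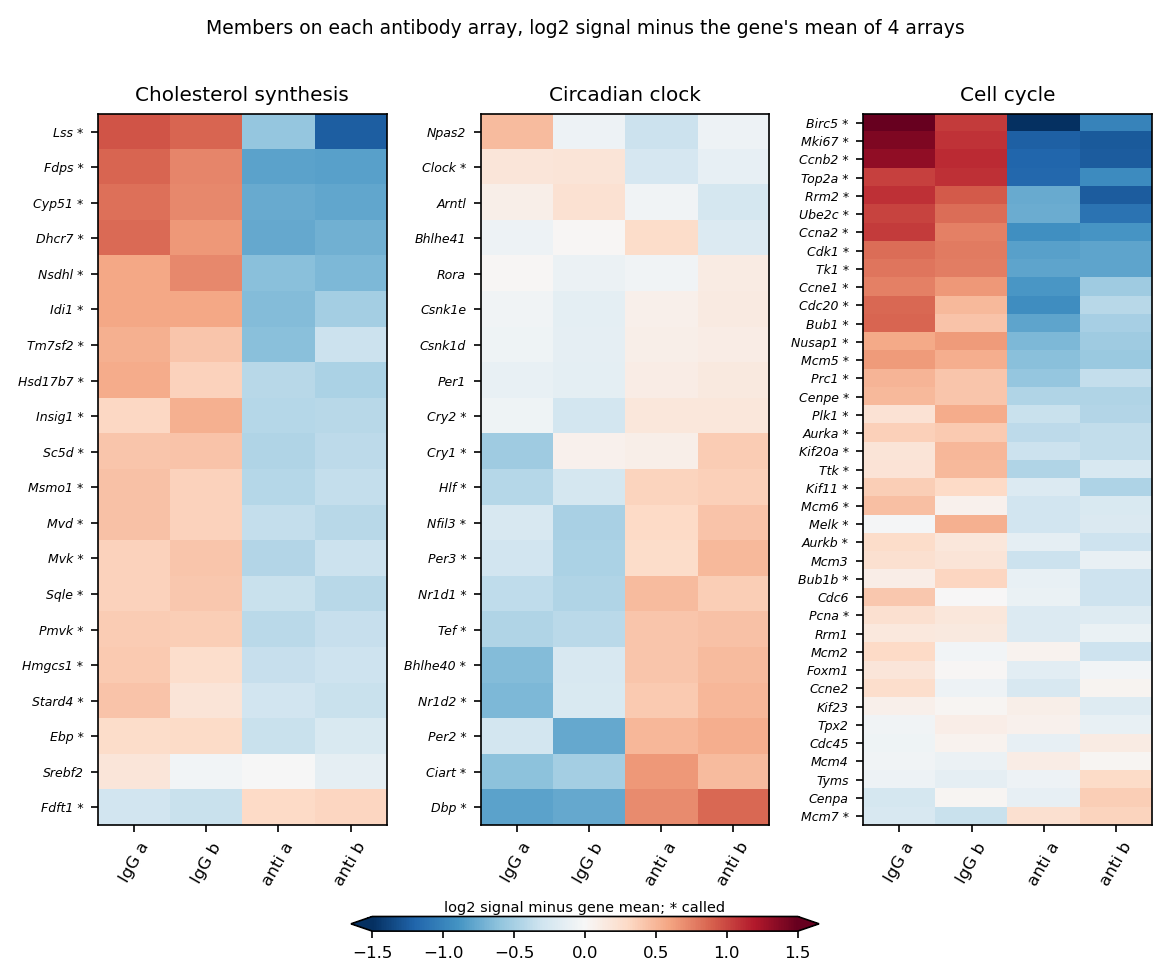
Every measured member of 3 lists on the 4 arrays, coloured by log2 signal minus the gene's mean over those arrays (colour bar, held at -1.5 and 1.5), with * on called genes. Most cholesterol and cell cycle genes run from red on IgG to blue on the antibody, with 18 of 20 and 26 of 39 called lower, Fdft1 and Mcm7 run the other way, and 12 of 20 clock genes were called higher.

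Genes of the circadian clock were higher. Of 20 measured genes 12 rose and 1 fell, with a median of 0.581. Dbp, an output factor of the clock, read 9.21 and 9.25 with IgG and 10.72 and 10.88 with the antibody, a difference of 1.57 ± 0.11 (limma adjusted p = 1.01e-11). Ciart, a repressor, read 5.83 and 5.94 with IgG and 7.10 and 6.92 with the antibody, and Per2, a core repressor, read 7.47 and 6.98 with IgG and 8.25 and 8.30 with the antibody. Both were higher on each antibody array, by 1.12 and 1.05. Nr1d1, Nr1d2 and Tef, which are active in the same phase, rose by 0.84, 0.89 and 0.85. On the opposing arm, Clock fell with a difference of -0.37, a call lost without IgG array a, IgG array b or antibody array a (limma adjusted p = 0.0817 to 0.167), and Arntl and Npas2 differed by -0.32 ± 0.14 (limma adjusted p = 0.104) and -0.40 ± 0.18 (limma adjusted p = 0.105) and were not called. Both were lower with the mean of their probe sets, Arntl at -0.53 (limma adjusted p = 0.000853) and Npas2 at -0.37 (limma adjusted p = 0.0372). Npas2 was also called without IgG array b, at -0.68 (limma adjusted p = 0.0138). Expression of these genes is known to change through the day, and the labels give no hour of tissue collection.

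CACGTG, the box that the CLOCK and BMAL1 pair reads, was in 29.4% of 17 clock promoters and 7.56% of all. Among all genes called higher and all called lower it was in 8.26% and 7.92%. Ciart at chr3:95882229-95882478, on the minus strand, holds it 3 times, marked in capitals.
Ciart: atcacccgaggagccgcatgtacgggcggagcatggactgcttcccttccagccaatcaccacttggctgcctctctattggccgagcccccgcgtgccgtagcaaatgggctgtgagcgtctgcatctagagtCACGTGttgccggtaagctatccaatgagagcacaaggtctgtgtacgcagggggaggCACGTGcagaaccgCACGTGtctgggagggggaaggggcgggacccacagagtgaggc
The matches begin 116, 58 and 44 bases before the start.

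Genes that take up glucose and carry the insulin signal were partly higher. Of 22 such genes 10 rose and 1 fell. Slc2a3, a glucose transporter, read 7.84 and 7.71 with IgG and 9.35 and 9.41 with the antibody, a difference of 1.60 ± 0.13 (limma adjusted p = 1.17e-10). Irs1, an adaptor of the insulin receptor, read 9.57 and 9.45 with IgG and 10.33 and 10.45 with the antibody, a difference of 0.88 ± 0.12 (limma adjusted p = 2.21e-06), and Insr, the receptor, rose by 0.61. Slc2a4, the insulin-responsive transporter GLUT4, rose by 0.48 ± 0.11 (limma adjusted p = 0.00122), and Gys1, muscle-type glycogen synthase, by 1.15. None of these overlapped between the groups. Skeletal muscle also makes them, and the summed level of the fast-muscle list was 11.647 and 11.619 with IgG and 15.024 and 15.045 with the antibody. Its part in these rises was not tested.

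White fat genes were split, with 9 of 32 higher and 8 lower. Lep, the fat-cell hormone leptin, had the largest fall of the list, at -1.89. Mest, which follows fat-cell enlargement, read 12.56 and 12.50 with IgG and 10.96 and 10.99 with the antibody, a difference of -1.56 ± 0.10 (limma adjusted p = 1.07e-12). Sfrp5, a secreted Wnt inhibitor, fell with a difference of -1.17, and Retsat, a retinol saturase, rose by 1.05. Pparg, the master factor of fat cells, rose by 0.49 ± 0.12 (limma adjusted p = 0.00196), while its partner Cebpa differed by 0.12 ± 0.10 (limma adjusted p = 0.43) and was not called. The difference for Adipoq, 0.35 ± 0.10 (limma adjusted p = 0.0121), was not called without any 1 of the 4 arrays (limma adjusted p = 0.0603 to 0.118). Npr3, the clearance receptor of natriuretic peptides, fell with a difference of -0.74, and Ptger3, a prostaglandin receptor that restrains lipolysis, at -1.47.

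Oxidative enzymes were called higher in most members of each list. All 23 measured genes of the tricarboxylic acid cycle had positive differences, and 19 were called, with a median of 0.601. Idh3b and Suclg1 rose by 1.13 and 1.09. Breakdown of branched-chain amino acids, which fat and muscle share, gave 19 higher and none lower of 23, with a median of 0.558, led by Pccb at 0.98 ± 0.11 (limma adjusted p = 3.95e-08) and Ivd at 0.95 ± 0.11 (limma adjusted p = 6.72e-08). In the respiratory chain 26 of 34 complex I genes, 4 of 4 complex II, 9 of 10 complex III, 10 of 14 complex IV and 10 of 16 ATP synthase genes rose. The exception was Atpif1, the inhibitor of ATP synthase, which read 9.55 and 9.46 with IgG and 8.90 and 8.96 with the antibody and was called lower, with a difference of -0.57 ± 0.12 (limma adjusted p = 0.00071), and not called with the mean of its probe sets. Medians of the complexes were 0.355 to 0.547. Complex IV held larger rises, those of Cox7a1, Cox6a2 and Cox8b, forms known from muscle and brown fat, at 3.83, 2.47 and 2.13. Cox7a1 read 6.07 and 5.99 with IgG and 9.75 and 9.97 with the antibody. Mitochondrial ribosomal proteins gave 25 higher and 2 lower of 76, a share of 35.5% against 24.3% of all genes. Skeletal muscle, which is rich in these enzymes, rose in the same samples by the summed levels given above, and its part was not tested.

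In fatty acid oxidation 25 of 27 genes rose. The carnitine transferase Cpt1a, which gates entry into mitochondria, read 10.55 and 10.42 with IgG and 9.70 and 9.57 with the antibody and was the 1 that fell, with a difference of -0.85 ± 0.11 (limma adjusted p = 6.28e-07). Acadvl and Acaa2 rose by 1.42 and 1.30. The genes that follow are members of the brown and beige fat list. Slc27a2, a fatty acid transporter, read 6.45 and 6.35 with IgG and 9.89 and 9.97 with the antibody, a rise of 3.52 ± 0.14 (limma adjusted p = 1.89e-17), and Pank1, which makes coenzyme A, rose by 2.67. Zic1 and Lhx8, known from classical brown fat, read 3.54 and 3.77 with IgG and 4.72 and 4.63 with the antibody and 4.09 and 3.87 with IgG and 4.68 and 5.28 with the antibody. Both were higher with the antibody, by 1.02 ± 0.14 (limma adjusted p = 1.76e-06) and 1.00 ± 0.16 (limma adjusted p = 2.18e-05). All these readings of Zic1 and Lhx8 lay below the array medians of 6.96 to 6.98. With a required change of 1.5-fold neither was called (limma adjusted p = 0.0535 and 0.179). Fgf21, a hormone induced by cold, fell with a difference of -0.80, and 25 of 33 brown and beige genes rose. Some members, such as Fabp3, Cox7a1 and Cox8b, are also known from muscle, and the part of skeletal muscle in this count was not tested. No probe set of the list members Tmem26, Tnfrsf9 and Cited1 was called, while the only probe set of Tbx1, another member, was called higher. Cidea, a lipid droplet protein of brown fat, and Ppargc1a, a coactivator of mitochondrial genes, rose by 5.29 and 1.67, and Prdm16, a factor of brown-fat identity, differed by -0.19 ± 0.14 (limma adjusted p = 0.394) and was not called.

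Skeletal muscle genes made up most of the 12 largest rises, with Ucp1, the heat-producing protein of brown fat, second at 6.93 and Fabp3, a fatty acid carrier of muscle and brown fat, also among them, at 5.79. Fast-fibre genes were higher in 24 of 25 and slow-fibre genes in 12 of 14, with medians of 3.330 and 4.104. The adult fast myosins Myh4, Myh1 and Myh2 rose by 7.03, 5.97 and 5.07, and the slow myosin Myh7 by 5.93. The giant sarcomere protein Ttn, the slow light chain Myl2 and the oxygen store Mb rose by 6.84, 6.65 and 5.94. The fast troponins Tnni2 and Tnnt3 and the calcium pump Atp2a1 rose by 6.40, 6.23 and 5.73. Myh7 read 4.45 and 4.37 with IgG and 10.24 and 10.44 with the antibody. The troponins of both fibre types, Tnnc2 and Tnnc1, read 5.68 and 5.53 with IgG and 12.14 and 12.13 with the antibody and 5.42 and 5.41 with IgG and 9.92 and 10.07 with the antibody. The groups were more than 4 log2 units apart for each of these. Myoz3 and Atp2a2 were the members not called, with differences of -0.05 and 0.24. Tpm3, a widely expressed tropomyosin, fell with a difference of -0.38, which was not called without any 1 of the 4 arrays (limma adjusted p = 0.0691 to 0.101). With the mean of a gene's own probe sets all of these were higher, Tpm3 at 0.97, Myoz3 at 0.44 and Atp2a2 at 0.48. Atp2a2, the slow-fibre calcium pump, was also called higher under quantile normalization (limma adjusted p = 0.0141) and with only the 4 antibody arrays (limma adjusted p = 0.0343).

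Heart genes and myogenic regulators were called in smaller numbers than fibre genes. Of 12 heart genes 1 rose and 1 fell, a share of 16.7% against 24.3% of all genes, and Myh6, the myosin of atria, differed by 0.20 ± 0.13 (limma adjusted p = 0.298). Of 19 myogenic regulators 5 rose and 1 fell, a share of 31.6%. Myf6, the factor of mature fibres, rose by 1.65 ± 0.15 (limma adjusted p = 8.54e-10) and Myod1, a factor of muscle commitment, by 1.04 ± 0.13 (limma adjusted p = 5.82e-07). Sln and Ckmt2, known from calcium and creatine cycling in muscle and beige fat, rose by 2.30 and 5.24. The other creatine genes Gamt and Ckb fell with differences of -1.09 and -0.57.

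Letters known from muscle promoters were frequent in the fast-fibre list. CAGCTG, an E-box of myogenic factors, was in 52.9% of 17 fast-fibre promoters and 30.8% of 13 slow-fibre promoters, against 12.5% of all. The MEF2 site was in 23.5% and 15.4%, against 1.90% of all. Among all genes called higher and all called lower, CAGCTG was in 13.9% and 15.3% and the MEF2 site in 2.46% and 1.66%. Promoters of Myh4 at chr11:67237562-67237811 and Mylpf, a fast light chain, at chr7:127211358-127211607, both on the plus strand, are printed with CAGCTG and, for Myh4, the MEF2 site in capitals.
Myh4: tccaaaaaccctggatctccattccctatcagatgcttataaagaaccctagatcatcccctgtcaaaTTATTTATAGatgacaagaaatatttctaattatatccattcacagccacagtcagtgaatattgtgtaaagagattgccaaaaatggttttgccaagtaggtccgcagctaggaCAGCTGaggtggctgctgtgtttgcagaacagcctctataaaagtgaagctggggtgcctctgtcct
Mylpf: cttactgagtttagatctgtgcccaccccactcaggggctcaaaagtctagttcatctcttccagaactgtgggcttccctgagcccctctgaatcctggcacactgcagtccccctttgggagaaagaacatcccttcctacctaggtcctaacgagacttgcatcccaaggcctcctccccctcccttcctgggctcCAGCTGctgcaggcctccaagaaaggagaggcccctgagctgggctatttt
The MEF2 site can share bases with TATAAA, which was in 17.6% of the fast-fibre promoters and 9.01% of all. The Smad letters CAGACA and GTCTAGAC were in 17.6% and 0 of 17 promoters of TGF-beta targets, against 14.5% and 0.194% of all. AGGTCA, read by nuclear receptors, was in 18.5% of 27 brown and beige promoters against 12.2%, and GAGGAAGT, read by Ets factors, and the CArG box were in 0 and 1 of them.

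Early response genes and stress genes moved both ways. Egr2, an early growth response factor, read 9.13 and 9.01 with IgG and 6.40 and 6.46 with the antibody, a difference of -2.64 ± 0.15 (limma adjusted p = 4.71e-14). Egr1 and Fos fell with differences of -1.81 and -1.31. The heat shock genes Hspa1a and Hspa1b rose by 1.98 ± 0.12 (limma adjusted p = 6.67e-13) and 1.17 ± 0.11 (limma adjusted p = 6.54e-09), and Ier3 by 1.07, so that the list of 30 gave 10 lower and 6 higher. Of 29 genes of the unfolded protein response 10 fell and 2 rose. Hspa5, the main chaperone, fell with a difference of -0.62, and Asns, asparagine synthetase, rose by 1.12. Of 36 glutathione and peroxide genes 14 rose and 6 fell. Gpx3, the secreted glutathione peroxidase, read 11.58 and 11.38 with IgG and 13.14 and 13.03 with the antibody, a difference of 1.60 ± 0.10 (limma adjusted p = 7.54e-13), and Gsta4, which removes lipid aldehydes, rose by 1.56.

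Genes of the mesothelium, the layer that covers abdominal fat depots, were higher in 11 of 15 and lower in none. Bnc1, a mesothelial transcription factor, read 5.92 and 5.38 with IgG and 7.01 and 6.87 with the antibody, a difference of 1.29 ± 0.16 (limma adjusted p = 3.38e-07), and Muc16 and Upk3b rose by 0.94 and 0.81. Msln, the defining marker mesothelin, read 8.02 and 7.22 with IgG and 7.94 and 7.90 with the antibody, with overlapping groups, and was not called, though it was called higher without IgG array a (limma adjusted p = 0.00404). The summed level of the list was 12.252 to 12.315 with IgG and 12.669 to 12.705 with the antibody. Epididymis and testis genes were called in 4.55% of 22, epithelial genes in 14.3% of 28 and the 5 sex-linked genes in none, below the 24.3% of all genes. Blood cell genes gave 3 higher and none lower of 10, where 11.7% of all genes were higher. Endothelial genes gave 5 higher and 3 lower of 25, a share of 32% that is close to the 24.3% of all genes. Aplnr, the apelin receptor, was among the lower ones, at -1.87 ± 0.13 (limma adjusted p = 5.73e-12).

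**Figure D4:**
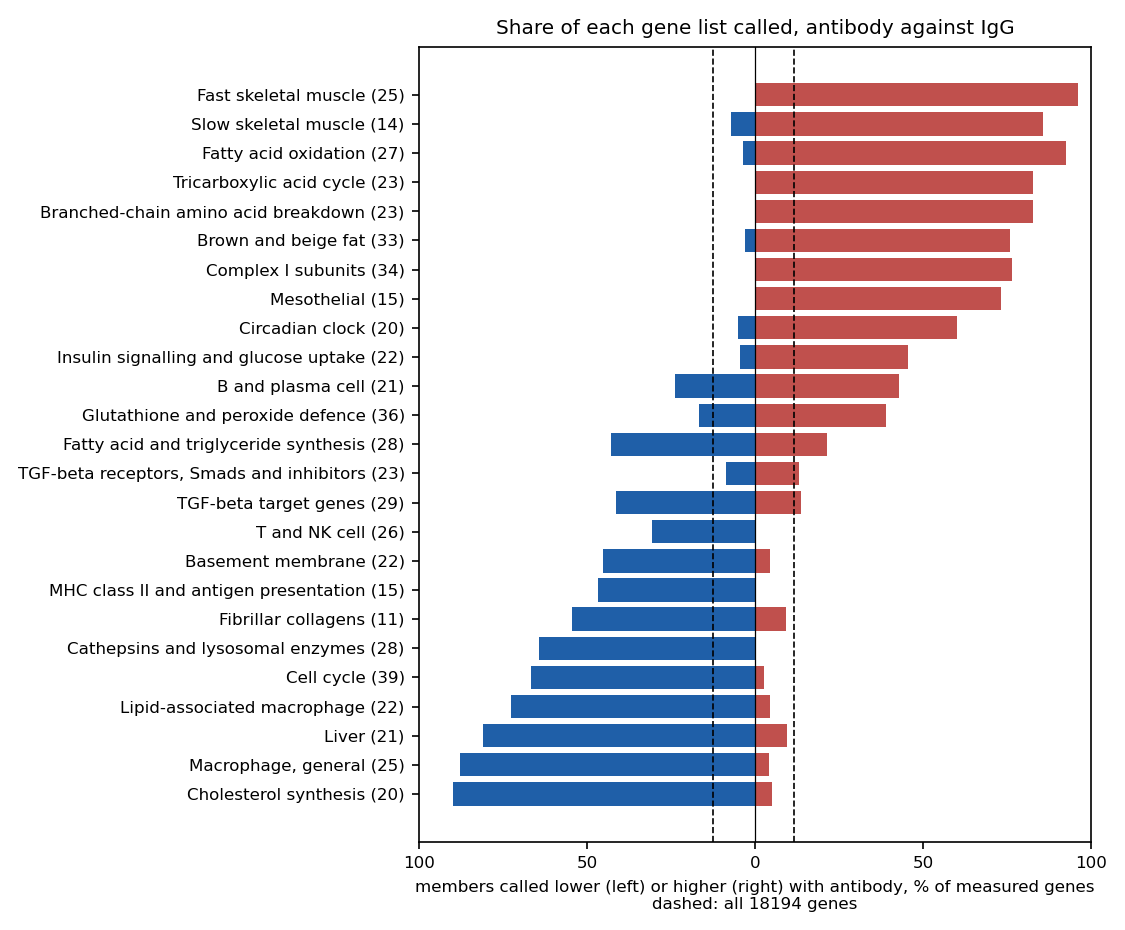
Share of the measured members of 25 gene lists (number in brackets) called higher (red, right) or lower (blue, left) with the antibody, in percent, with dashed lines at the 11.7% and 12.6% of all 18194 genes. Fast skeletal muscle stands at 24 of 25 higher and cholesterol synthesis at 18 of 20 lower, while the TGF-beta receptors and Smads lie near the dashed lines.

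The antibody difference was set against the genotype difference on high fat diet, Smad3-/- minus wild type, which uses none of the same arrays. The genotype comparison called 10.8% of genes, 863 higher (4.74%) and 1100 lower (6.05%). The difference between the differences was called for 12.4% of genes, 1118 higher (6.14%) and 1147 lower (6.30%) under the antibody. The 4 antibody arrays spread more over probe sets (SD of 2.151 to 2.173) than the other 8 (1.643 to 1.739), so a test across the 2 experiments may also hold a difference of scale. The genes most below the genotype value were Tph2, Atp6v0d2, Ubd, Fabp1, Ncan and Apoa2.

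Lists that fell with the antibody and stayed near 0 in the genotype comparison were liver, cell cycle and fibrillar collagens. For liver, 16 of 21 members were lower under the antibody than under the genotype by this test, where 1 rose and 1 fell between genotypes. Alb differed by -3.20 with the antibody and -0.09 between genotypes, a difference of -3.10 ± 0.19 (limma adjusted p = 2.88e-12). For the cell cycle the count was 21 of 39, with Mki67 at -2.48 and 0.15. For fibrillar collagens it was 6 of 11, with Col3a1 at -1.48 and 0.16, and no member was called between genotypes. For cholesterol synthesis it was 15 of 20. Sqle was among the exceptions, at -0.75 with the antibody and -0.40 between genotypes, a difference of -0.35 ± 0.15 (limma adjusted p = 0.144).

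For fatty acid and triglyceride synthesis the genotype comparison gave 14 higher and 3 lower of 28 against 6 and 12 with the antibody, and 18 members were lower under the antibody by the test of the difference. Me1 was at -0.85 with the antibody and 0.77 between genotypes, a difference of -1.62 ± 0.15 (limma adjusted p = 1.2e-08). Slc2a3 was at 1.60 and -0.89, a difference of 2.49 ± 0.18 (limma adjusted p = 1.13e-10). Thbs1 also had opposite signs, at 0.54 and -1.24.

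Among 25 general macrophage markers, 13 were lower under the antibody by the test of the difference, 1 was higher and 11 were not called. Ctss was at -1.55 and -1.51 and Cd68 at -1.97 and -1.57, and neither passed the test of the difference. Adgre1, the F4/80 antigen, was at -1.87 and -0.03, a difference of -1.84 ± 0.16 (limma adjusted p = 3.86e-09), and Itgax at -2.89 and -0.16, a difference of -2.73 ± 0.17 (limma adjusted p = 3.99e-12). Among 22 lipid-associated genes 13 were lower under the antibody by this test and 1 was higher.

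Slow-fibre genes rose more with the antibody than between genotypes in 12 of 14, with a median difference of 1.591, and fast-fibre genes in 13 of 25, with 2 lower. Myom2, an M-band protein, read 4.40 and 4.42 with IgG and 9.29 and 9.30 with the antibody and had the highest value of this test, 4.71 ± 0.24 (limma adjusted p = 3.05e-13), with a genotype difference of 0.17. Klhl40 and Asb5, both muscle proteins, were at 3.99 and 3.89 with the antibody and 0.87 and 0.85 between genotypes. Lcn5 and Spint4, genes of the epididymis, and Adgrg2 completed the 6 highest. Lcn5 and Spint4 were not called for the antibody, at 0.09 and -0.13, and their place in this test comes from genotype differences of -3.72 and -3.73. By the same test 12 of 27 fatty acid oxidation genes were lower and 4 higher under the antibody than between genotypes, and 10 of 23 tricarboxylic acid cycle genes were lower. Other oxidative lists varied, where 6.30% of all genes were lower by this test. Those lower were 2 of 34 complex I, 1 of 4 complex II, 4 of 10 complex III and 4 of 16 ATP synthase genes. None of these lists held a higher one. Complex IV gave 1 of 14 in each direction, and branched-chain amino acid breakdown gave 2 of 23 lower and 1 higher.

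**Figure D5:**
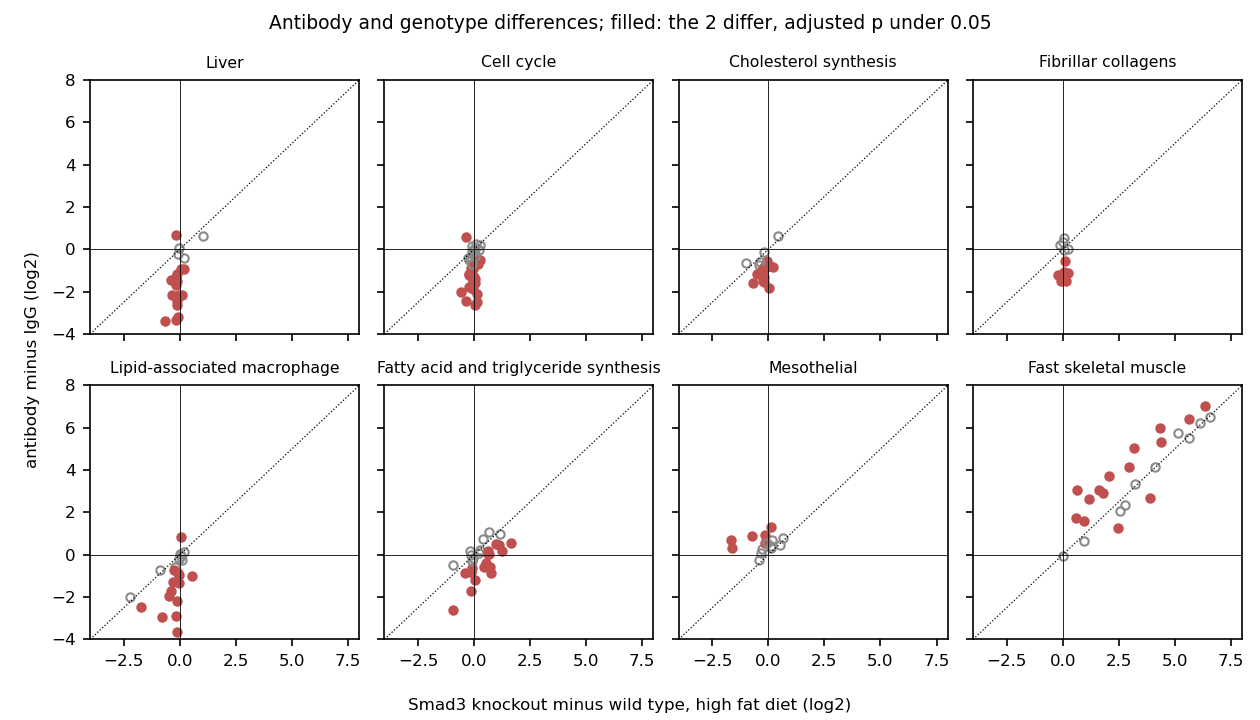
Log2 difference of antibody minus IgG (y axis) against Smad3-/- minus wild type on high fat diet (x axis) for the members of 8 lists, 1 point per gene, with the dotted line where both are equal; filled points differ between the 2 comparisons at an adjusted p under 0.05. Liver, cell cycle and fibrillar collagen genes run down the vertical line at 0, and fast muscle genes lie along or above the dotted line, except 2 filled points below it.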

How the data were processed

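Gene expression was measured on 12 mouse Affymetrix arrays, 2 in each of 6 groups. The values are log2 signals that the authors deposited, made with RMA in Partek per the submitters' processing notes, with versions not given in the sources used here. The arrays hold 45101 probe sets: 34958 name a single gene, 932 more than 1 and 9211 no gene. A gene was read from the brightest, on average over all 12 arrays, of the probe sets that name it alone, which gave 18194 genes (9012 had a choice), and 18032 genes matched the RefSeq table of GRCm38.p6 by ID. Group means were fitted over all 12 arrays with limma 3.58.1 in R 4.3.3 (lmFit, then eBayes with an intensity trend, 6 residual and 20.4 prior degrees of freedom). P-values were adjusted by Benjamini-Hochberg over all genes, with a threshold of 0.05. The summed level of a list is the log2 of its members' summed linear signal. The number of arrays limits the precision.

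Genes were named by a rule, though not every gene it gives is printed: the 12 highest and 12 lowest called genes whose arrays did not overlap, up to 4 members of each of 64 lists by p, 38 preset genes, and the 6 highest and 6 lowest of the test against genotype, and members of families described by role. Other genes named, such as the further enzymes, clock and Mcm genes, were chosen after their values were seen. Members and lists were chosen with earlier results of these data known. The main fit used no pairing by the letters a and b on the arrays, whose meaning is not labelled. Alternatives covered the variance model, dim probe sets, the choice of probe set, scaling, the samples fitted, array weights, a replicate block, a minimum change of 1.5-fold and each array left out. The fit was tested on simulated data.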

Additional observations from a re-analysis of the deposited data

How the results depend on the processing

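With a required change of 1.5-fold, 289 genes were called higher and 374 lower with the antibody, 158 and 116 between genotypes on high fat diet, and 148 and 178 for the difference between these. Under that threshold the lists kept 15 brown and beige, 6 fatty acid oxidation, 2 branched-chain amino acid and 3 clock genes called higher, and 6 cholesterol, 3 fatty acid synthesis, 4 TGF-beta target, 12 general macrophage and 14 cell cycle genes called lower. With genes under the 40th percentile of level taken out of the fit, 14 cell cycle and 8 liver genes were called lower. These counts leave out the members removed. All 270 called genes that were followed by name and stayed in that fit kept their call. Leaving out 1 of the 4 arrays at a time gave 1430 to 1634 genes higher and 1644 to 1896 lower. All other alternatives that were run left these counts within 1.5 times. When all probe sets of a gene were averaged, Myoz3 was at 0.44 and Tpm3 at 0.97, both opposite in sign to the values reported. Their probe sets disagreed. Of 5 for Tpm3, 2 were called higher and 3 lower, and of 2 for Myoz3, 1 was called higher. Why they disagreed was not tested. The median over all genes was 0.003 with arrays centred on their medians and 0.002 under quantile normalization. Both scalings set the arrays to a like level. Of all alternatives the value furthest from 0 was 0.012, without dim probe sets. Over genes, the difference between arrays a and b of the IgG group correlated at -0.0699 with that of the antibody group. With 2 arrays a side this cannot show whether the letters pair samples. The fit with the letter as a replicate block called 2135 genes higher and 2277 lower.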
